A study of Mus musculus with 16 samples.

Results

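Zscan4b, Zscan4c, Zscan4d, Zscan4e, Zscan4f, Tcstv1, Tcstv3 and Zfp352 are genes of the 2-cell-like state of mouse embryonic stem cells (ESCs). They were taken by their symbols, and the choice was made with earlier results of these data known. The table of 26127 genes holds a row for 6 of the 8, namely the 5 Zscan4 genes and Zfp352. Tcstv1 and Tcstv3 were not analysed here.

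At any moment a small part of an ESC culture passes through a state that resembles the 2-cell embryo, in which the embryo's own genome is first transcribed. Cells in this state transcribe MERVL retroviral elements and a set of genes that other ESCs keep silent. Zscan4 genes encode proteins with a SCAN domain and zinc fingers and are known for telomere elongation by recombination and for spells of DNA demethylation in ESCs. Zfp352 encodes a zinc finger protein transcribed in the early embryo, and Tcstv genes are transcribed in the same cells. Dux, a homeobox transcription factor, and Dppa2 and Dppa4, which bind DNA upstream of Dux, are activators of the state.

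Ribosome-depleted total RNA was sequenced from 16 libraries of ESCs whose labels give the background strain E14 in all. The labels give 8 libraries the genotype Wildtype (WT), 4 the genotype Dnmt1-/- (Dnmt1 KO) and 4 the genotype Dicer/Dnmt1 -/- (Dicer/Dnmt1 KO). Dnmt1 encodes the maintenance DNA methyltransferase, and Dicer1 the ribonuclease that cuts microRNAs and small interfering RNAs. The comparisons ask which genes change when DNA methylation is not maintained, and which change further when Dicer1 is also lost. Titles name the WT and Dnmt1 KO libraries as Dicer controls, and they carry a number and a letter (1A to 4B in WT, 1A to 2B in each knockout). The labels do not say what the letter means, whether libraries came from separate cultures or how long after deletion the RNA was taken, so p-values measure the spread between these libraries, which may be technical. Libraries of 1 number were more alike than libraries of different numbers in both knockouts, with an SD of the log2 difference over genes of 0.247 and 0.261 against 0.329 to 0.358 in Dnmt1 KO and 0.235 and 0.243 against 0.304 to 0.353 in Dicer/Dnmt1 KO. The 4 libraries of a knockout may thus stand for 2 independent samples, and values with A and B averaged are given for this. In the methods of the study the parent line carries Dnmt1 alleles that Cre removes after tamoxifen and is of strain C57BL/6, which differs from the label, and lines that also lose Dicer were made from it by CRISPR/Cas9 as colonies of single cells. Libraries held 31.46 to 52.54 M reads, so that 3 reads, the most an observed count of 0 allows, are 0.0571 to 0.0954 reads-per-million (RPM). Such floors and the intervals on reads below cover counting error only.

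Several properties of the libraries bear on every comparison. Dnmt1 was at 7.06 ± 0.89 log2 RPM (SD, n = 8) in WT, 4.40 ± 0.19 (n = 4) in Dnmt1 KO and 4.57 ± 0.07 (n = 4) in Dicer/Dnmt1 KO. The libraries labelled WT 4A and WT 4B, at 5.69 and 5.55, stood below the other 6 WT libraries (7.40 to 7.66) and above all knockout libraries. Dicer1 was at 5.27 ± 0.40, 5.46 ± 0.19 and 3.87 ± 0.16 log2 RPM. Among WT libraries Dicer1 was also lowest in WT 4A and WT 4B, at 4.78 and 4.56 against 5.15 to 5.68 in the others. The ESC markers Pou5f1 (8.45 ± 0.28, 8.45 ± 0.12 and 8.26 ± 0.06) and Nanog (8.55 ± 0.17, 7.91 ± 0.30 and 8.64 ± 0.04) were above 7 log2 RPM in every group mean. Of 9 ESC markers tested, 3 were lower than in WT in Dnmt1 KO (Sox2 by 0.67, Nanog by 0.64 and Klf4 by 0.55 on the log2 scale). In Dicer/Dnmt1 KO 2 were lower (Tdgf1 by 0.96 and Utf1 by 0.63) and 1 was higher (Sall4, by 0.60). Of all tested genes 17.5% were called lower in Dnmt1 KO, and 30.1% lower and 31.9% higher in Dicer/Dnmt1 KO. Reads of 5 Y-linked genes summed to 0.235 to 1.37 RPM in WT, 19.2 to 22.0 in Dnmt1 KO and 14.4 to 19.2 in Dicer/Dnmt1 KO, and Usp9y had no read in any WT library. The WT and knockout libraries thus differed in Y-linked RNA, and a difference between cell lines cannot be told apart from genotype in any comparison with WT.

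In build NCBIM37 of the mouse genome, which the authors used, the 5 Zscan4 genes lie within a stretch of chromosome 7. Zscan4b is at chr7:11486098-11490399 on the minus strand, Zscan4c at chr7:11591071-11595896 on the plus strand and Zscan4d at chr7:11746992-11751497 on the minus strand. Zscan4e follows at chr7:11891727-11896031 on the minus strand and Zscan4f at chr7:11983264-11988090 on the plus strand. Zfp352 lies alone at chr4:89885511-89892393 on the plus strand. All 6 are annotated as protein coding. RefSeq promoters (build GRCm38.p6, from 250 bases before to 50 bases after the start) were at hand for 5 of the 6 genes, and not for Zscan4e.

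Promoters of Zscan4d and Zscan4b, the copies with the highest and the lowest level in the knockout libraries, are printed to show how alike the copies are, and that of Zfp352 for contrast. Capitals in the Zscan4 sequences mark the words TATAAA and CCAAT, which were searched on both strands, and in Zfp352 the most frequent word of 12 bases. Each is written from 5′ to 3′ on the gene's strand. They lie at chr7:11166099-11166398 (minus strand), chr7:10905001-10905300 (minus strand) and chr4:90218570-90218869 (plus strand).
Zscan4d: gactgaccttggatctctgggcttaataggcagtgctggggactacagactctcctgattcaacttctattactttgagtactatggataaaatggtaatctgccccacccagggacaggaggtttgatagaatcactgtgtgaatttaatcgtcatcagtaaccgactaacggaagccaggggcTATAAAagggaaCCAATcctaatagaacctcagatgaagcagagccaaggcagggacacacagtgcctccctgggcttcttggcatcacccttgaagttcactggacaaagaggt
Zscan4b: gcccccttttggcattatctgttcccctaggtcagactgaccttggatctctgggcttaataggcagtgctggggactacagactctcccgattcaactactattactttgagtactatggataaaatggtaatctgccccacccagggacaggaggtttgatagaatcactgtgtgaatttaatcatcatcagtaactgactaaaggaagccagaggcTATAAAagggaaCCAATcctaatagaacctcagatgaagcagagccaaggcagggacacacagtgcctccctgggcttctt
Zfp352: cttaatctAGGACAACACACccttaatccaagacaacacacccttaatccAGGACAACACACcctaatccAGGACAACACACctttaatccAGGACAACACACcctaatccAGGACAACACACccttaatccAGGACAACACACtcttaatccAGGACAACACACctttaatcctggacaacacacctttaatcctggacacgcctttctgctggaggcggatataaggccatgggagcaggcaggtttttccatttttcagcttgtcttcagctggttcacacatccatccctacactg

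Each of the 4 Zscan4 promoters held TATAAA and CCAAT once, on the gene's own strand and at 31 and 19 bases before the annotated start in Zscan4b and Zscan4f, 54 and 42 in Zscan4c and 65 and 53 in Zscan4d. Of all 32851 promoters of the same length, 13.6% hold TATAAA and 37.4% hold CCAAT on either strand. Over their aligned parts the 4 Zscan4 promoters were 95.3% to 99.3% identical (6 pairs), with Zscan4c and Zscan4f the closest pair. CpG dinucleotides, the sites that Dnmt1 methylates, were few, with 1 in Zscan4b, 4 in Zscan4c, 3 in Zscan4d and 3 in Zscan4f against a median of 7. The Zfp352 promoter held neither word and 2 CpGs. It is instead a tandem array in which AGGACAACACAC occurs 7 times at a median spacing of 21 bases, and 1.72% of promoters hold any 12-base word as often. These are descriptions of the letters in these windows.

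How far reads can tell the copies apart limits every value for 1 Zscan4 gene. Coding sequences of the 5 copies were 96.6% to 99.7% identical over 10 pairs, the closest being Zscan4b with Zscan4e (99.7%) and Zscan4c with Zscan4f (99.6%). Of all stretches of 100 bases within an exon, the length of 1 read, 72.5% occurred once in the genome for Zscan4d. The share was 29.6% for Zscan4c, 17.4% for Zscan4b, 10.6% for Zscan4e and 6.36% for Zscan4f. For Zfp352 it was 99.3%. Reads were taken from both ends of fragments and alignments of mapping quality under 20 were discarded, so the split of reads among the copies is uncertain. The sum over the 5 copies avoids that split but may also lack reads that match several places. Of the Zscan4f windows 56.9% were shared with another member, and the rest of those not found once recur outside the other members.

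All 6 genes were low or undetected in WT and present in each knockout library. They passed the filter on low values (over 1 RPM in at least 4 libraries) only through the knockout groups, so they had to differ from WT to be tested at all. In a fit with no such filter, over 21545 genes, all 6 were again higher in both knockouts. Because RNA came from whole cultures, more cells in the state and more RNA per cell cannot be told apart.

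Zscan4d, the copy that predominates in 2-cell embryos, had 0 to 8 reads in a WT library (median 3.5). It had 299, 273, 378 and 268 reads in Dnmt1 KO libraries 1A, 1B, 2A and 2B, or 9.09, 6.57, 10.2 and 8.12 RPM. In Dicer/Dnmt1 KO it had 357, 265, 490 and 306 reads, or 9.64, 8.34, 12.8 and 9.73 RPM. Every knockout library lay above every WT library, and the 2 knockout groups overlapped.

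Zscan4f had 1 to 7 reads in WT libraries (median 3), and 8.51, 7.75, 7.31 and 6.40 RPM in Dnmt1 KO. In Dicer/Dnmt1 KO its values were 8.75, 7.01, 10.1 and 9.54 RPM. Zscan4c, whose promoter has served in reporters of this state in ESCs, had 0 to 9 reads in WT (median 3), 5.26, 5.77, 5.69 and 5.82 RPM in Dnmt1 KO and 6.59, 5.19, 7.32 and 4.74 RPM in Dicer/Dnmt1 KO. The Dnmt1 KO libraries of Zscan4c were the closest to each other of any member (SD of 0.07 on the log2 scale), inside the wider range of Dicer/Dnmt1 KO.

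The remaining copies were lower. Zscan4e had no read in 6 of 8 WT libraries and 3 at most, in WT 4A, against 68, 96, 119 and 68 reads in Dnmt1 KO and 152, 80, 95 and 64 in Dicer/Dnmt1 KO. Zscan4b had no read in 5 of 8 WT libraries and 5 at most, in WT 3B, against 75, 57, 77 and 84 reads in Dnmt1 KO and 98, 52, 97 and 79 in Dicer/Dnmt1 KO. Both genes were thus at the floor in most WT libraries and overlapped between the knockouts.

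Every WT library held reads of Zfp352, as of Zscan4f, but at a higher level than any single Zscan4 gene reached in WT. WT values ran from 9 to 28 reads (median 12), or 0.238 to 0.703 RPM, with WT 2A the highest. Dnmt1 KO libraries held 2.13, 2.29, 2.62 and 1.76 RPM and Dicer/Dnmt1 KO libraries 1.16, 1.42, 0.967 and 1.75 RPM. All Dicer/Dnmt1 KO libraries were between WT and Dnmt1 KO, although the highest of them, 2B, was next to the lowest Dnmt1 KO library, also 2B (1.75 and 1.76 RPM).

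**Figure D1:**
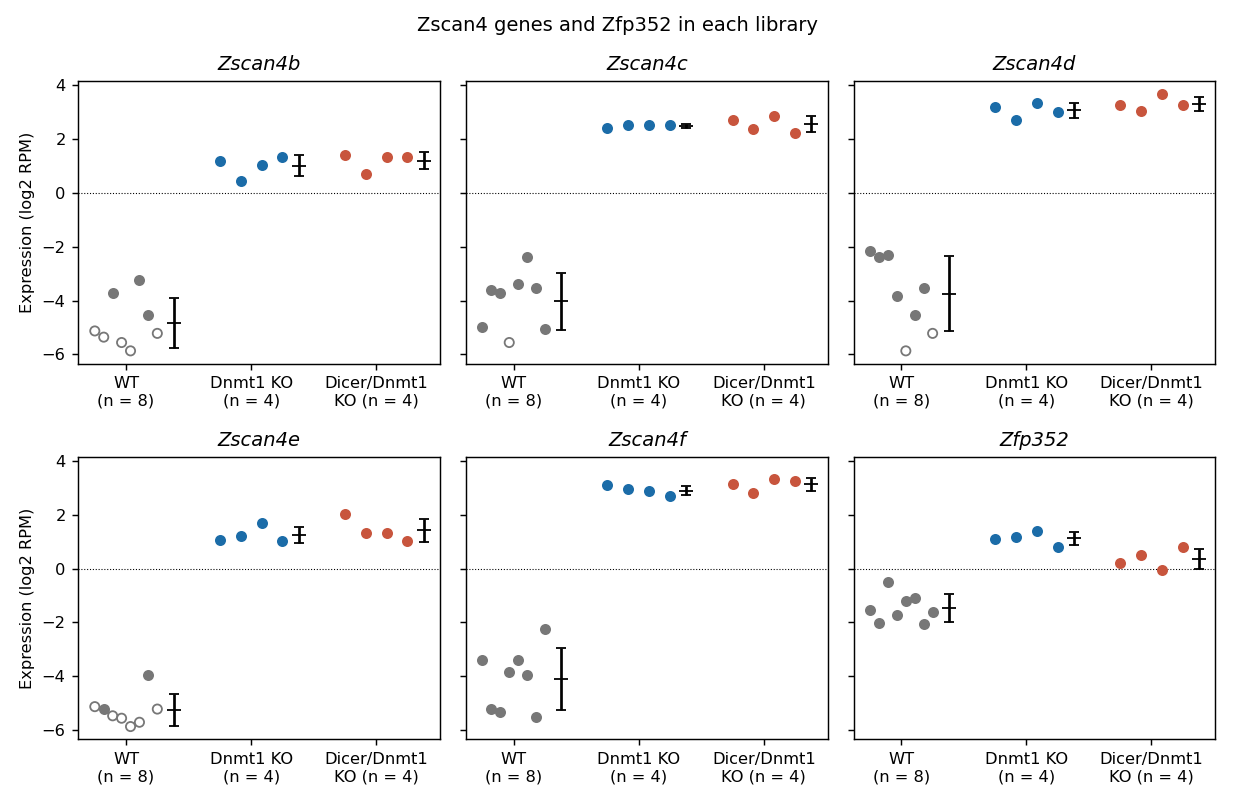
Expression of each gene in log2 RPM (y axis) for the libraries of each group (x axis), with open circles for libraries with no read, drawn at the value deposited for 0 reads. Black bars are means ± SD, and all knockout points of the Zscan4 genes sit above 0 while all WT points of the Zscan4 genes sit below -2.

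**Figure D2:**
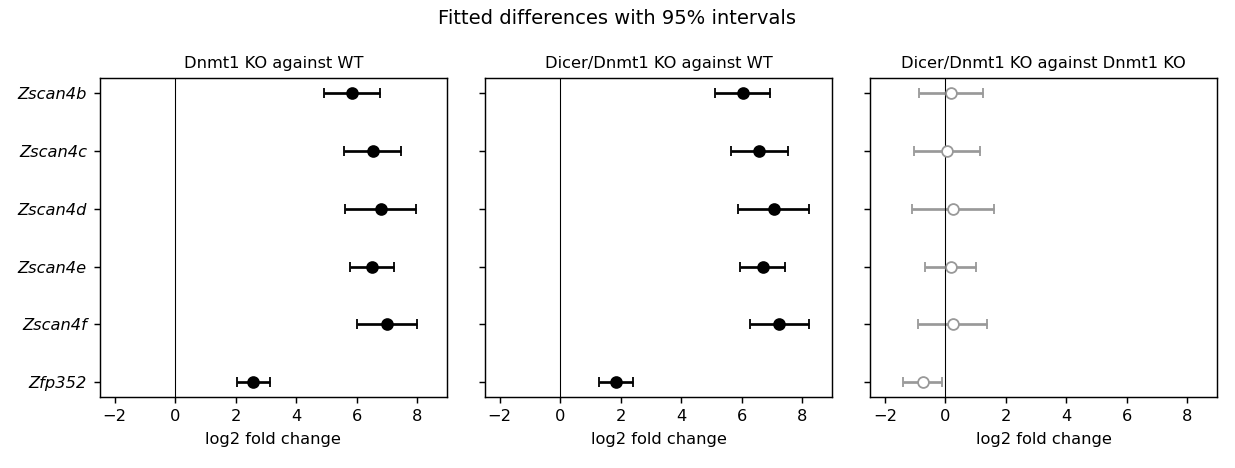
Fitted log2 fold changes (x axis) of the 6 genes in the 3 comparisons with 95% intervals, filled where the adjusted p-value was under 0.05. The Zscan4 genes lie between 5.84 and 7.24 against WT and between 0.06 and 0.25 between the knockouts, and Zfp352 at 2.59, 1.84 and -0.75.

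In Dnmt1 KO the 5 Zscan4 genes were 57.3- to 129-fold higher than in WT on the fitted scale, and Zfp352 6.01-fold higher. In limma's fit the log2 fold changes were 7.01 for Zscan4f (SE 0.47, adjusted p = 4.49e-09), 6.80 for Zscan4d (SE 0.56, adjusted p = 5e-08) and 6.53 for Zscan4c (SE 0.44, adjusted p = 5.27e-09). Zscan4e followed at 6.51 (SE 0.35, adjusted p = 3.59e-10), Zscan4b at 5.84 (SE 0.44, adjusted p = 1.67e-08) and Zfp352 at 2.59 (SE 0.27, adjusted p = 7.72e-07). Zscan4f and Zscan4d were the third and the fifth largest increases of 12892 genes, and Zfp352 ranked 117. Of all tested genes 23.5% were called higher, and in 14.8% every Dnmt1 KO library lay above every WT library, as in 6 of 6 members.

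Fitted folds of genes near 0 reads depend on the 0.9 read that stands for none, so ratios of summed reads are given beside them. For the 5 copies together, 3762 reads in Dnmt1 KO against 95 in WT gave a ratio of RPM of 90.4 (95% exact interval 73.8 to 112). The single copies ranged from 66.9 (35.9 to 141) for Zscan4b to 200.4 (77.6 to 739.6) for Zscan4e, whose 4 WT reads leave the widest interval. For Zfp352 the ratio was 5.71 (4.64 to 7.06). The intervals of the Zscan4 copies overlapped one another, and that of Zfp352 lay below them all.

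In Dicer/Dnmt1 KO all 6 genes were again higher than in WT. The fitted increases were 7.24 (Zscan4f), 7.06 (Zscan4d), 6.69 (Zscan4e), 6.59 (Zscan4c) and 6.03 (Zscan4b) on the log2 scale, with SEs of 0.35 to 0.56, and 1.84 for Zfp352 (SE 0.27). Adjusted p-values from limma ran from 8.58e-11 (Zscan4e) to 1.55e-05 (Zfp352). All 6 were called higher beside 31.9% of all genes, and all 6 did not overlap with WT beside 22.6%. Summed over the copies, 4207 reads gave a ratio of 106 (86.1 to 131) to WT. This comparison shares the WT libraries with the previous one, so their sizes are not independent.

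Without WT 4A and WT 4B the log2 increases in Dnmt1 KO were 5.83 to 7.08 for the Zscan4 genes and 2.46 for Zfp352, and in Dicer/Dnmt1 KO 6.01 to 7.32 and 1.71. Every one of these stayed past the threshold. With A and B of each number averaged, which leaves 4 WT values and 2 in each knockout, all 6 members were still called higher, with adjusted p-values of up to 0.00051 in Dnmt1 KO and up to 0.00136 in Dicer/Dnmt1 KO in limma. In the fit with no filter, 17.3% of genes were called higher in Dnmt1 KO against 23.8% in Dicer/Dnmt1 KO.

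Between the knockouts the Zscan4 genes were not told apart. The fitted differences, Dicer/Dnmt1 KO minus Dnmt1 KO, were 0.06 to 0.25 on the log2 scale, with adjusted p-values of 0.752 to 0.939 in limma. Their 95% intervals were widest for Zscan4d (-1.11 to 1.62) and narrowest for Zscan4e (-0.67 to 1.03), and all 5 included 0. WT libraries, which vary most for these genes, enter the shared estimate of spread. In reads, the sum over the copies was 1.17 times as high in Dicer/Dnmt1 KO (1.12 to 1.22 by counting alone), with 23.8 to 28.5 RPM in Dnmt1 KO libraries and 24.7 to 35.3 in Dicer/Dnmt1 KO. The 2 ranges overlap. Of all genes 36.3% were called in this comparison, 16.9% higher and 19.4% lower, against 0 of 6 members in limma (1 of 6, Zfp352, at an unadjusted p under 0.05).

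Zfp352 was the member with the largest difference between the knockouts, a log2 change of -0.75 (SE 0.31, 95% interval -1.40 to -0.10) that did not pass the adjusted threshold (adjusted p = 0.0644, unadjusted p = 0.0252 in limma). Its 2 groups did not overlap, as was so for 22.3% of all genes in the lower direction. Summed reads gave a ratio of 0.587 (0.486 to 0.707), 180 reads against 320. The adjusted p-value ranged from 0.00617 to 0.175 over the alternatives tried. It fell to 0.0345 when WT 2A was left out, to 0.0458 without WT 4A and WT 4B, and to 0.047 (log2 change -0.90) when Dicer/Dnmt1 KO 2B was left out. With every library kept it was 0.00617 with a pseudocount of 1 RPM, 0.0185 after quantile normalization and 0.0107 when WT was left out of the fit, so both single libraries and the choice of scale and model moved this call. With A and B of each number averaged it was 0.175.

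Reads of Zfp352 and Zscan4 were therefore in different proportions in the 3 groups. For each Zfp352 read there were 0.435 to 1.33 Zscan4 reads in WT libraries and 12.8, 10.4, 10.9 and 14.2 in Dnmt1 KO. Dicer/Dnmt1 KO libraries had 27.3, 17.4, 36.5 and 16.3. The 3 ranges do not overlap, and this ratio was looked at after the values of both genes were known and was not tested.

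**Figure D3:**
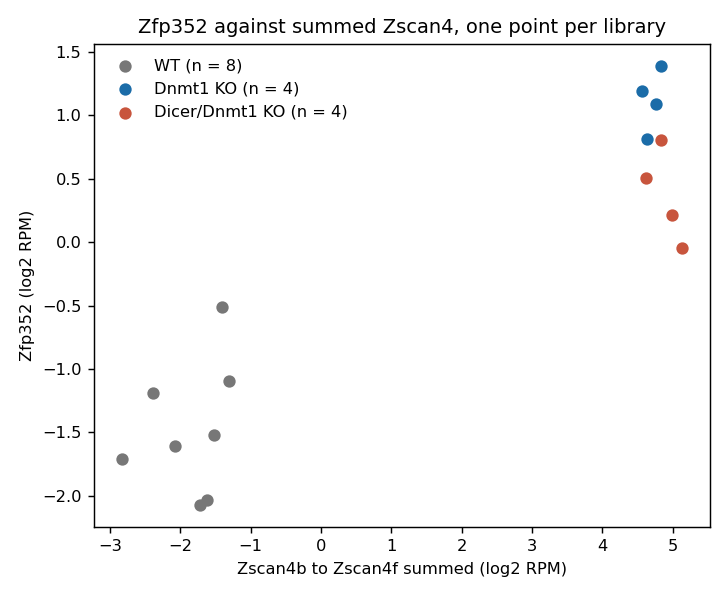
Zfp352 (y axis, log2 RPM) against the summed Zscan4b to Zscan4f reads (x axis, log2 RPM), with 1 point for each library. WT libraries lie at -2.83 to -1.31 on the x axis and both knockouts at 4.57 to 5.14, and on the y axis Dicer/Dnmt1 KO lies between the other groups.

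Per length of exon the order of the copies was the same in both knockouts, from Zscan4d through Zscan4f, Zscan4c and Zscan4e to Zscan4b and Zfp352. These levels were not corrected for the share of exon windows found once in the genome. That share was 72.5% for Zscan4d and 6.36% to 29.6% for the other copies, and its part in the order was not tested. In Dnmt1 KO the levels were 4.26 ± 0.772 RPKM (SD, n = 4), that is RPM for each kilobase of exon, for Zscan4d and 3.08 ± 0.364 for Zscan4f, whose libraries overlap. Zscan4c was at 2.45 ± 0.111 RPKM, below every Zscan4f library, and Zscan4e at 1.38 ± 0.312, below every Zscan4c library. Zscan4b (1.19 ± 0.288) overlapped with Zscan4e, and Zfp352 (0.944 ± 0.153) with Zscan4b. In Dicer/Dnmt1 KO the levels were 5.08 ± 0.953, 3.64 ± 0.555, 2.59 ± 0.522, 1.60 ± 0.519 and 1.34 ± 0.268 RPKM in the same order, and 0.569 ± 0.145 for Zfp352. There Zscan4d stood above Zscan4f in every library and Zfp352 below Zscan4b, and the other neighbours in the order overlapped.

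Each copy also took a like share of the family's reads in both knockouts. Zscan4d held 32.4% of them in Dnmt1 KO against 33.7% in Dicer/Dnmt1 KO, Zscan4f 28.8% and 29.3%, and Zscan4c 21.7% and 19.9%. Zscan4e held 9.3% and 9.3%, and Zscan4b 7.8% and 7.7%. Single libraries ranged from 27.6% to 36.3% for Zscan4d and from 5.8% to 10.2% for Zscan4b. The WT total of 95 reads is too small to read an order from. Zscan4f, with the smallest share of exon windows found once in the genome, held the second largest share of reads, and what aligners did with reads that match several copies was not tested.

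**Figure D4:**
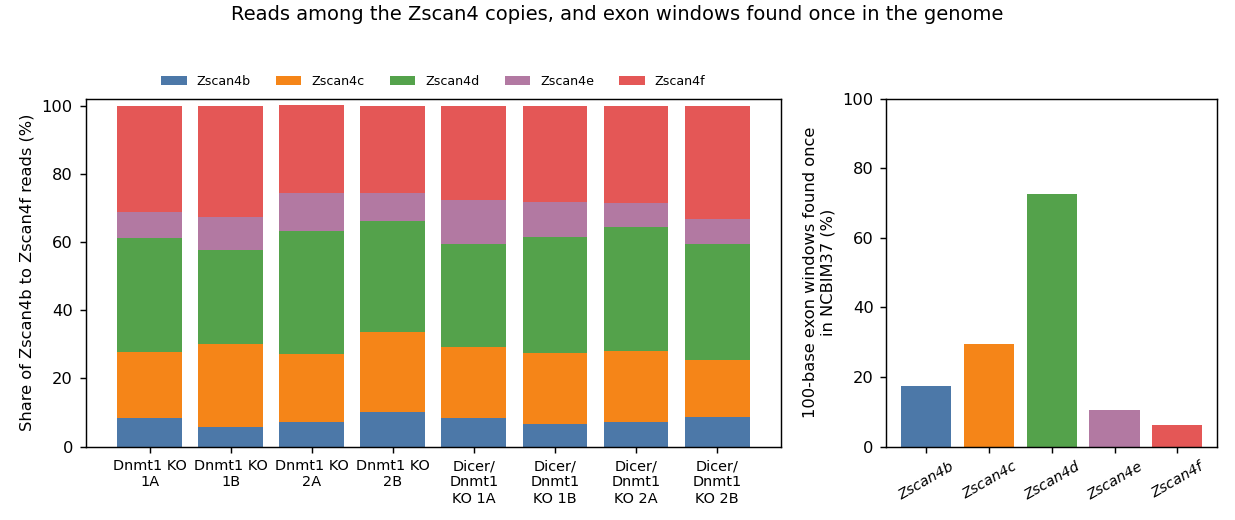
Left, share of Zscan4b to Zscan4f reads (y axis, %) taken by each copy in the 8 knockout libraries. Right, share of 100-base windows of each copy's exons that occur once in NCBIM37 (y axis, %), from 72.5% for Zscan4d to 6.36% for Zscan4f.

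Other genes of the state were also higher in the knockouts. A list of 54 further genes of the 2-cell-like state had 36 rows, of which 15 passed the filter, again through the knockouts. In Dnmt1 KO 15 of 15 rose against WT (median log2 change 6.03, against 0.04 over all genes), and in Dicer/Dnmt1 KO 14 of 15 (median 5.91, against 0.02), the exception being Obox6, a homeobox gene, at 1.17 (adjusted p = 0.18). Of all tested genes 23.5% and 31.9% were called higher in these comparisons. With no filter, 28 of 35 rose against WT when Dnmt1 was lost, and 25 of 35 when both genes were lost, beside 17.3% and 23.8% of all genes. Summed over the list there were 2.09 to 4.01 RPM in WT, 46.9 to 57.8 in Dnmt1 KO and 35.4 to 46.2 in Dicer/Dnmt1 KO. The lists here were drawn up with earlier results of these data in view, so these counts are descriptions.

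Dub1a and Dub1, members of a family of deubiquitinating enzymes, rose by 7.40 and 5.86 in Dnmt1 KO and by 7.30 and 5.93 in Dicer/Dnmt1 KO on the log2 scale. The predicted genes Gm5662 and Gm8300, both on chromosome 12, rose by 6.61 and 6.0 in Dnmt1 KO and by 5.99 and 5.25 in Dicer/Dnmt1 KO. Their SEs were 0.34 to 0.47, and the largest adjusted p-value from limma was 3.97e-08. Between the knockouts 0 of 15 tested genes were called in limma, and 1 had an unadjusted p under 0.05. Of all genes 36.3% were called, 16.9% higher and 19.4% lower. The median log2 change of the 15 was -0.36, against -0.01 over all genes. Gm8300 was at -0.75 (SE 0.40, adjusted p = 0.148 in limma) and Dub1 at 0.07 (SE 0.54, adjusted p = 0.932). The knockout groups of Gm8300 did not overlap, as was so for 22.3% of all genes in the lower direction.

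Among genes too low for the filter was Dux, which is named after its values were seen. It had 1 read in the 8 WT libraries together, in WT 3B. Dnmt1 KO libraries held 7, 5, 14 and 10 reads and Dicer/Dnmt1 KO libraries 2, 1, 5 and 0. In the fit with no filter it was higher than WT by 3.38 in Dnmt1 KO (SE 0.36, adjusted p = 2.71e-06) and by 1.16 in Dicer/Dnmt1 KO (SE 0.36, adjusted p = 0.0153) on the log2 scale. It was lower in Dicer/Dnmt1 KO than in Dnmt1 KO by limma (log2 change -2.21, SE 0.42, adjusted p = 0.00111), although 1 library of each group held 5 reads. That fit called 4 of the 35 genes lower in Dicer/Dnmt1 KO than in Dnmt1 KO, Dux, Spz1 (-2.62), Pramel6 (-1.92) and Gm4027 (-1.22), and 1 higher, Duxbl (1.12), beside 11.3% and 9.69% of all genes. These values rest on few reads. How many exon windows occur once in the genome was measured for the members only, and not for genes of the wider list.

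**Figure D5:**
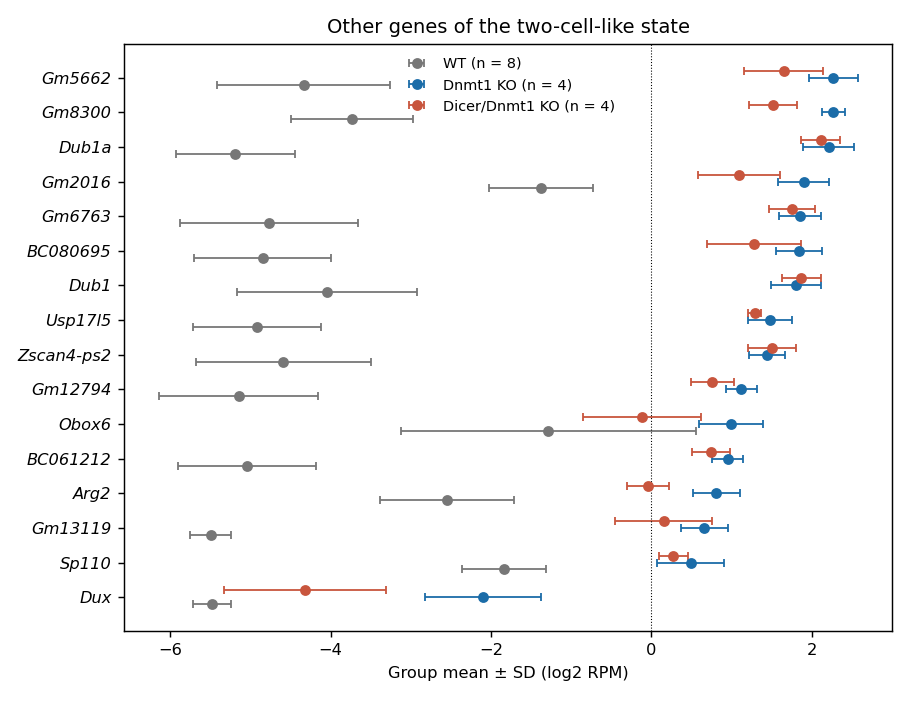
Group means ± SD (x axis, log2 RPM) of the 15 tested genes of the wider list and of Dux (y axis). WT means lie at -1.29 or below, Dnmt1 KO means of the tested genes at 0.49 to 2.27, and Dux at -2.10 in Dnmt1 KO against -4.32 in Dicer/Dnmt1 KO.

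Genes of a list drawn up as activators of the state went in both directions. What each listed gene does to the state was not tested, so the name of the list is only a label. Of 12 listed, 9 had rows and 7 were tested, of which 3 rose and 1 fell in Dnmt1 KO, and 2 rose and 1 fell in Dicer/Dnmt1 KO. Genes called lower made up 17.5% and 30.1% of all genes in these comparisons, and genes called higher 23.5% and 31.9%. Between the knockouts 2 were higher and 1 was lower in Dicer/Dnmt1 KO, beside 16.9% and 19.4% of all genes. Among the 7 tested, Gata2, a zinc finger transcription factor, changed most. In limma it rose by 1.64 in Dnmt1 KO (SE 0.38, adjusted p = 0.00237) and by 2.96 in Dicer/Dnmt1 KO (SE 0.38, adjusted p = 4.4e-06). Gata2 was 1.32 higher in Dicer/Dnmt1 KO than in Dnmt1 KO (SE 0.44, adjusted p = 0.0265 in limma). Dppa2 rose from 4.67 ± 0.14 log2 RPM in WT to 5.71 ± 0.15 in Dnmt1 KO (log2 change 1.05, SE 0.08, adjusted p = 3.53e-08) and 5.70 ± 0.07 in Dicer/Dnmt1 KO. Its partner Dppa4 was at 6.14 ± 0.31, 6.16 ± 0.19 and 6.0 ± 0.10 and was not called. Zmym2 differed by 0.03 and 0.06, not called, and Zfp281 by -0.06 (adjusted p = 0.594) and -0.31 (adjusted p = 0.00204).

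Genes listed as repressors of the state were all expressed. Of 29 tested, Dnmt1 among them, 9 rose and 4 fell in Dnmt1 KO, 7 rose and 9 fell in Dicer/Dnmt1 KO, and 1 rose and 11 fell between the knockouts. Of all genes 23.5% rose and 17.5% fell in the first comparison, 31.9% and 30.1% in the second, and 16.9% and 19.4% between the knockouts, so the counts against WT were near those shares. Trim28, a corepressor that zinc finger proteins recruit to retroviral elements, was 0.45 higher on the log2 scale in Dnmt1 KO than in WT (SE 0.08, adjusted p = 1.49e-04) and 0.52 lower in Dicer/Dnmt1 KO than in Dnmt1 KO (adjusted p = 2.32e-04). Ncl, which encodes nucleolin, was 0.58 higher (SE 0.12) and 0.51 lower in the same comparisons. Rif1, which binds telomeres and late-replicating DNA, was not called in any comparison (0.03, -0.12 and -0.15), and Atrx, a chromatin remodeller, was 0.22 lower in Dnmt1 KO (SE 0.07, adjusted p = 0.0204).

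Telomere genes, listed because Zscan4 acts on telomeres, were lower in part. Of 11 tested, 1 rose and 5 fell in Dnmt1 KO, while 0 rose and 7 fell against WT in the double knockout. Of all genes 23.5% rose and 17.5% fell in the first comparison, and 31.9% and 30.1% in the second. Between the knockouts 1 was higher and 4 were lower in Dicer/Dnmt1 KO, beside 16.9% and 19.4% of all genes. Tinf2 and Pot1a, subunits of the complex that caps telomeres, fell by 0.30 and 0.51 in Dnmt1 KO and by 0.61 and 0.86 in Dicer/Dnmt1 KO (SEs of 0.07 to 0.09). Dkc1, of the telomerase complex, was at -0.06 in Dnmt1 KO (adjusted p = 0.521) and fell by 0.56 in Dicer/Dnmt1 KO, and the helicase gene Rtel1 rose by 0.42 in Dnmt1 KO. Of 3 meiotic recombination genes, Smc1b, a meiotic cohesin subunit, rose by 1.22 and 2.43 (SE 0.13), the recombinase gene Dmc1 fell by 0.52 and 0.77 (SE 0.13) and Spo11 was too low to test.

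Some markers of other cells were higher as well, in comparisons in which 23.5% (Dnmt1 KO) and 31.9% (Dicer/Dnmt1 KO) of all genes were called higher than in WT. All 6 primitive endoderm markers were higher in Dnmt1 KO than in WT and 4 of 6 in Dicer/Dnmt1 KO, with summed levels of 6.45 to 16.2 RPM in WT, 29.3 to 39.5 in Dnmt1 KO and 15.9 to 20.7 in Dicer/Dnmt1 KO. Feeder fibroblast markers rose in 4 of 8 and 6 of 8 tested genes, with sums of 237 to 714, 437 to 561 and 568 to 930.1 RPM. Fn1 held most of these sums (mean of 390 RPM over the 16 libraries) and was not called (-0.15 and 0.60), while Col1a1 rose by 1.40 and 1.72. Trophoblast markers rose in 2 of 5 and 2 of 5, with sums of 179.9 to 280.3, 198 to 217 and 216 to 253 RPM. Nearly all of that sum was Krt8 and Krt18 (means of 130 and 85.7 RPM), at -0.11 and 0.02 in Dnmt1 KO, not called, while Hand1 rose by 3.19 and Cdx2 by 1.23 in that comparison. No marker of these 3 lists was without reads throughout a group, and the lowest were Lum (at most 7 reads in a library) and Elf5 (at most 17). Their part in the members' values was not tested.

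By correlation over all 16 libraries with the summed Zscan4 reads, the 8 most alike genes outside the members were Rian, Gm9049, Npr1, Gm13083, Gm13119, AA792892, Gm5286 and Usp17l5, with Pearson r from 0.994 to 0.986. Gm13119 and Usp17l5 are in the wider list. Rian, an imprinted noncoding RNA of chromosome 12, rose from 1.38 ± 0.27 log2 RPM in WT to 6.37 ± 0.06 and 6.26 ± 0.15 in the knockouts. Zfp352 had an r of 0.915. The median r over genes was 0.052, and 483 genes were above 0.9. These values mainly restate the gap between WT and the knockouts, because the libraries fall into 2 clusters.

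Within groups, on residuals from the 3 group means, other genes came first, namely Mfsd2a, Casq2, Rasef, Apba2, Aoah, Rtn4rl1, Rbm41 and Gmip, with r from 0.791 to 0.730. The copies themselves had r of 0.730 (Zscan4b), 0.570 (Zscan4c), 0.517 (Zscan4d), 0.243 (Zscan4e) and -0.350 (Zscan4f), and Zfp352 0.166. Each copy is part of the sum it was set against, which tends to raise its r, and Zfp352 and the other genes are not. No residual r of any gene exceeded 0.9. The summed reads varied most among WT libraries (SD of 0.53 on the log2 scale, against 0.12 and 0.22), which hold 6 to 19 reads of the family each.

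Most genes around the members had few or no reads. Within 500 kb of the Zscan4 genes the table lists 14 other genes, of which 2 were tested. Zscan4-ps2, a further copy annotated as protein coding in GENCODE M1, rose by 6.03 in Dnmt1 KO, and by 6.09 with Dicer1 also lost, on the log2 scale (SE 0.47 in both). The zinc finger gene Zik1 was at 0.12 in Dnmt1 KO (adjusted p = 0.509) and -0.40 in Dicer/Dnmt1 KO (SE 0.14, adjusted p = 0.0206). The other 12, of which 9 are vomeronasal receptor genes, had at most 2 reads in any library. Near Zfp352 the table lists 1 gene, Gm12629, with no read in any library.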

How the data were processed

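The authors trimmed reads of ribosome-depleted total RNA with Trim Galore 0.3.5 and aligned them to NCBIM37 with TopHat2 2.0.11 (versions from the submitters' processing notes), discarded alignments of mapping quality under 20, and quantified genes in SeqMonk. The deposited values are log2 RPM, with 1 column for each library. A further 35 value columns of other samples were not used. On the linear scale the nonzero values were whole reads in 100% of cases (within 0.01 read or a relative 0.0001), and genes without reads are written as 0.9 read. Because the deposited unit is log2, limma 3.58.1 (R 4.3.3) was run on these values and no count model. Genes over 1 RPM in at least 4 libraries (12892) were fitted with a mean for each of the 3 groups and a variance trend. A gene was called at a Benjamini-Hochberg adjusted p-value under 0.05 over all tested genes. Ratios of summed reads have exact conditional 95% intervals. The limma script was tested on simulated data.

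Members and lists were chosen with earlier results of these data known. From each of the 5 lists on the 2-cell-like state, telomeres and recombination the text names every listed gene where 4 or fewer passed the filter, and otherwise the 4 with the highest mean RPM. Other genes of these lists (Dux, Obox6, Spz1, Pramel6, Gm4027, Duxbl, Gata2), all single genes of the marker and Y-linked lists, and Gm12629 were chosen after their values were seen. Likeness names the 8 genes of highest r, and neighbours are genes that start within 500 kb. Gene positions came from GENCODE M1, which matched 26081 of 26127 genes, and promoters from RefSeq on GRCm38.p6. No coordinates were converted. Exon windows of 100 bases were searched on both strands of NCBIM37. Alternatives were no filter on low values, a pseudocount of 1 RPM, quantile normalization, median centring, averaging A and B, only the 2 groups compared, subsets of WT, each library left out and a replicate block. Leaving out WT 4A and 4B together was added after seeing the data.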

Additional observations from a re-analysis of the deposited data

Results flagged for a closer look

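Of 18 sets of a member and a group, 2 held a library far from the others by Dixon's test, of which chance gives about 1 in 20. Zscan4b in Dicer/Dnmt1 KO 1B, at 0.71 log2 RPM (52 reads), was the lowest of 4 libraries, which otherwise lay at 1.33 to 1.40 (gap of 0.892 of the range, critical value 0.829). Zscan4e in WT 4A, at -3.94 log2 RPM, was the highest of 8 (0.617, critical value 0.526) and rests on 3 reads, where 6 of the others had none.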

How the results depend on the processing

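Against WT all 6 members stayed higher and past the threshold in each of 26 alternatives for both knockouts, with log2 changes of 1.21 to 8.12 for the 6 members in both comparisons except Zfp352 in Dicer/Dnmt1 KO (0.74 to 1.98). A pseudocount of 1 RPM gave the smallest values. Between the knockouts, members called went from 0 to 1, Zfp352, under a pseudocount of 1 RPM (-0.47, adjusted p = 0.00617), quantile normalization (-0.83, 0.0185), a fit of only the 2 groups compared (-0.75, 0.0107), WT numbers 3 and 4 only (0.0268) and without WT 4A and 4B (0.0458). Leaving out 1 library gave 0 to 1. Zscan4b was at -0.0011 without Dnmt1 KO 1B, Zscan4e at -0.02 without Dicer/Dnmt1 KO 1A and Zscan4c at -0.05 without Dicer/Dnmt1 KO 2A, none called, and the highest values with 1 library left out were 0.35, 0.33 and 0.16. The cause was not tested. With A and B averaged, genes called among all tested fell from 5289 to 2288 in Dnmt1 KO, from 7985 to 5134 in Dicer/Dnmt1 KO and from 4682 to 1225 between them, with 8 averaged values in the fit.

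Deviations of same-labelled libraries from their group means correlated at -0.418 to 0.372 across groups. Libraries of different labels were not compared, so whether the labels pair samples across groups cannot be told. With a replicate block, 6, 6 and 0 members were called, Zfp352 between the knockouts at an adjusted p of 0.0785, and it changed no member's call. Depth limits the WT values, at 0 to 9 reads for each Zscan4 gene.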
